A study of Mus musculus with 2 samples.

Results

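A set of 8 genes of megakaryocytes and platelets, Pf4, Ppbp, Gp9, Gp1ba, Gp1bb, Gp5, Gp6 and Nfe2, were examined in RNA of the E14.5 mouse embryo. They were taken by name, as all probe sets that the array's annotation assigned to these symbols on either array. Of the 8 genes, 7 had a probe set paired with their symbol alone, 8 probe sets in all among the 34958 that named 18194 genes. Gp1ba had no probe set under its symbol, so no signal of it is given and it enters only the search of promoter sequences. A further probe set paired with both Gp1bb and its neighbour Septin5, and it is described apart because its signal cannot be assigned to either gene.

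The RNA came from whole wild-type embryos with no treatment. It was extracted with RNAzol, labelled with biotin and hybridised to Affymetrix mouse oligonucleotide arrays in duplicate, so that there are 2 arrays of 1 condition and no groups to compare. The methods give NMRI and C57/BL6 as strains of the embryos of this stage and do not tie either to the arrays. The sources do not say whether each array had its own embryos or its own extract, and their spread may be of technical origin only. The authors' signals are intensities on a linear scale, with a trimmed mean of 100 on each array. A signal was read against a background bound of 27.9 on array 1 and 33.8 on array 2, the 95th percentile of 81 probe sets for receptors of smell, pheromones and bitter taste, which were assumed not to be transcribed in most of the embryo. A gene is called above background here if each array has a probe set of that gene over its bound.

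Megakaryocytes are the large polyploid blood cells that shed platelets. In the mouse embryo they arise first in the yolk sac and then in the fetal liver, which is the main blood-forming organ at this stage. Their products fall into clear roles. Pf4 and Ppbp encode chemokines stored in platelet alpha granules, the products of Gp1ba, Gp1bb, Gp9 and Gp5 form the GPIb-IX-V receptor for von Willebrand factor, Gp6 encodes the main signalling receptor for collagen, and Nfe2 encodes a transcription factor subunit needed for platelet release.

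The chemokine genes Pf4 and Ppbp, the receptor genes Gp1bb and Gp5 and the transcription factor gene Nfe2 were above background on both arrays. Gp9 and Gp6 passed the bound on array 1 only. The 5 of 7 measured genes that passed on both arrays (71.4%) stand beside 65.5% of all 18194 named genes, so the share alone does not set them apart. Of the 7 genes, 6 rest on a single probe set, and 4 of these 6 passed, where 48.6% of the 9182 named genes with 1 probe set did. The 2 genes that passed on 1 array only stand beside 4.73% of all named genes. The same 5 genes also exceeded 2 times the bound on both arrays in 1 probe set, as did 51.8% of all named genes. Probe sets differ in how strongly they respond to their transcript, so signals of different genes are not set against each other here.

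**Figure D1:**
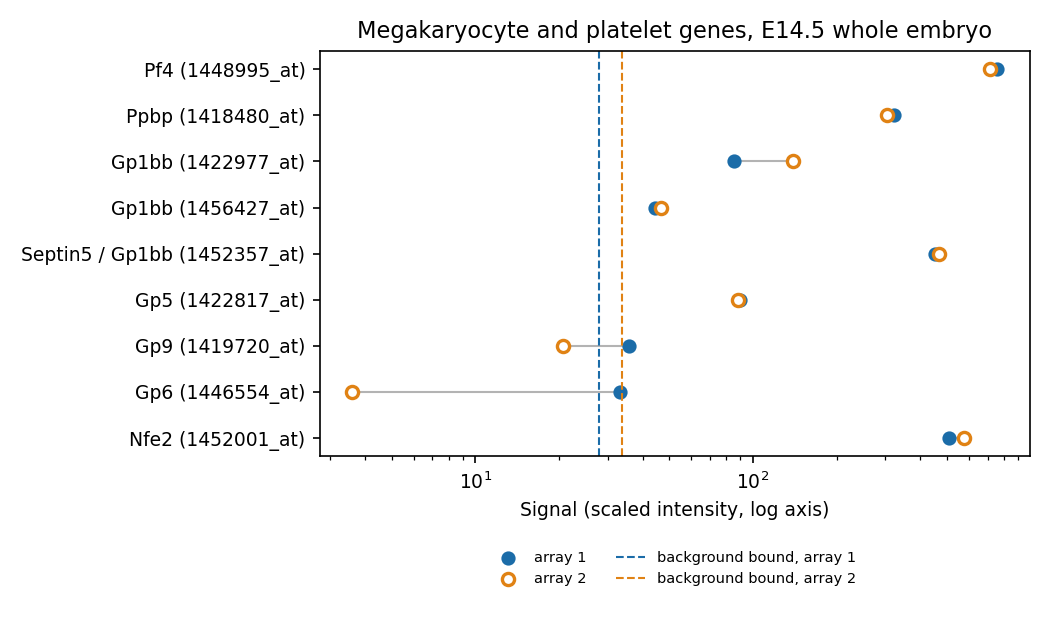
Signal of each probe set of the measured genes on array 1 (filled) and array 2 (open), as scaled intensity on a log axis, with the background bound of each array dashed; grey lines join the duplicates. Pf4, Ppbp, Gp1bb, Gp5 and Nfe2 lie right of both bounds on both arrays, while Gp9 and Gp6 lie between 3.6 and 35.6 and fall below the bound on array 2.

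Pf4, also known as Cxcl4, encodes platelet factor 4, a heparin-binding chemokine. Array 1 gave 759.9 for its probe set, 1448995_at, and array 2 gave 714.3, which is 27.2 and 21.1 times the bound. Ppbp, or Cxcl7, encodes pro-platelet basic protein, the precursor of a neutrophil-attracting peptide. The signals of its probe set, 1418480_at, were 322.7 and 304.9, or 11.6 and 9.02 times the bound. Both genes gave nearly equal signals on the duplicates, which differed 1.06-fold for each.

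Pf4 and Ppbp lie side by side in a cluster of CXC chemokine genes on chromosome 5, and most of their neighbours in that cluster were not above background. In RefSeq (GRCm38.p6) the order is Cxcl5, Ppbp, Pf4, Cxcl3, Cxcl15, Cxcl1 and Cxcl2. Of the 5 neighbours, 4 were below the bound on both arrays, with signals from 0.9 to 26.5 over 5 probe sets. Cxcl5, directly before Ppbp, was at 0.9 on array 1 and 4.2 on array 2. Cxcl3, directly after Pf4, was at 1.8 and 3.2. Both encode attractants of neutrophils, and neither came near the bound. Cxcl15 stood at 16.6 and 18.6 in one probe set and at 26.5 and 7.7 in the other, and Cxcl2 at 10.2 and 9.9. The exception was Cxcl1. It passed through 2 probe sets of the kind open to cross-hybridisation, at 69.8 and 72.7 and at 79.4 and 94.4, and its remaining probe set was below the bound at 11.3 and 3.6. Of 11 CXC chemokine genes other than Pf4 and Ppbp, in the cluster and elsewhere, 4 passed in all, the remaining ones being Cxcl12 (434.8 and 359.4), which encodes a homing factor of blood progenitors, Cxcl13 and Cxcl14. Whether each low probe set can detect its transcript was not tested.

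**Figure D2:**
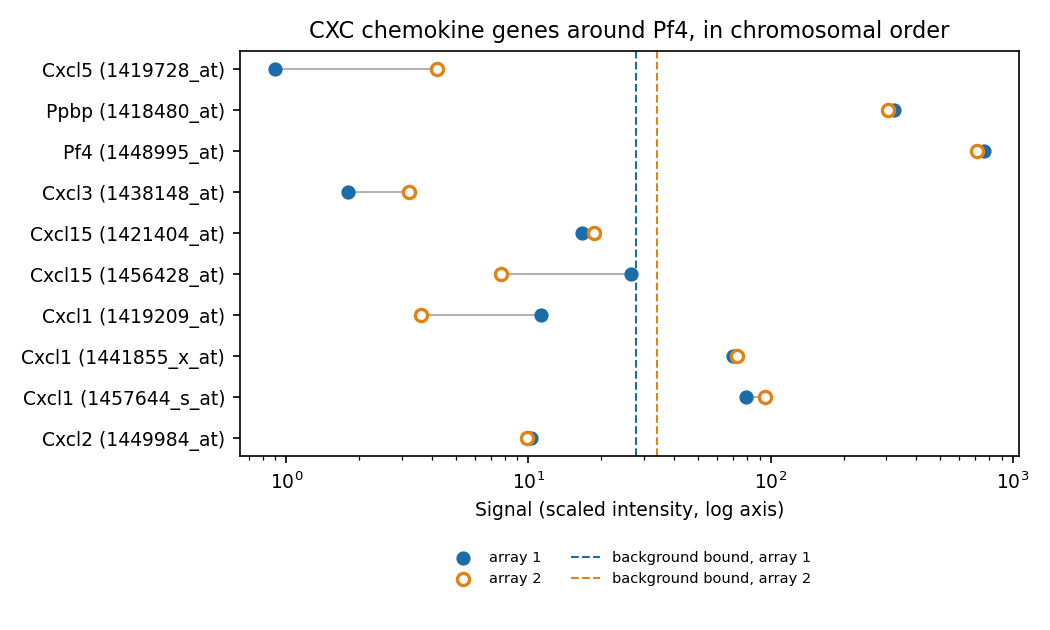
Signal of every probe set of the 7 CXC chemokine genes around Pf4, in their order on chromosome 5, on array 1 (filled) and array 2 (open), as scaled intensity on a log axis with the bound of each array dashed. Ppbp and Pf4 lie far right of the bounds, and Cxcl5 and Cxcl3, which flank them, lie at 4.2 or lower.

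Start regions are shown for the 2 detected members of the cluster, Ppbp and Pf4, and for Cxcl3, the neighbour next to Pf4. These genes stand side by side, with Ppbp and Pf4 above background and Cxcl3 below it. Any relation of sequence to signal was not tested. Each sequence is the RefSeq window of GRCm38.p6 from 250 bases before to 50 bases after the start of the gene, 5′ to 3′ on the gene's strand. Capitals mark matches on either strand to AGATAA (a form of the GATA factor motif) and CAGGAAG (a form of the ETS motif). They also mark TGANTCA (the core of the NF-E2 motif) and TATAAA (the TATA box). Other forms of these motifs were not searched for and are not marked. Ppbp lies at chr5:90768268-90768567 (plus strand), Pf4 at chr5:90772185-90772484 (plus) and Cxcl3 at chr5:90785851-90786150 (plus).
Ppbp: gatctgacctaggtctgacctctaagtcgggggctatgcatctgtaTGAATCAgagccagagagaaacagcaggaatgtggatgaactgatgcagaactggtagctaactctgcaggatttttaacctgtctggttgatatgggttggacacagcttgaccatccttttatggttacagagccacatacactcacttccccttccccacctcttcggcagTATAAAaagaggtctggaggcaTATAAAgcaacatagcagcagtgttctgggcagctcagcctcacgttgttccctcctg
Pf4: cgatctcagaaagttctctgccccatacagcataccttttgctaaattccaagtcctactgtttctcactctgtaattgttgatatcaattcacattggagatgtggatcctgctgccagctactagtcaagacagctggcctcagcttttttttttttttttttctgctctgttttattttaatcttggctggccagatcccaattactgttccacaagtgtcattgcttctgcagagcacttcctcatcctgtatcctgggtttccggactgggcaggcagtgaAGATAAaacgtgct
Cxcl3: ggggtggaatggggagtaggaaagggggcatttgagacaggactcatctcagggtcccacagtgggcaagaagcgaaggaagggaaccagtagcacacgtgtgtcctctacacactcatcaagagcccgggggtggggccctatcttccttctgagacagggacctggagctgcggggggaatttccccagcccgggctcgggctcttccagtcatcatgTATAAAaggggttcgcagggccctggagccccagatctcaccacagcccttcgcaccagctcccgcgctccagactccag

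In the Ppbp window the TATA box letters occurred at -30 and -8 and the NF-E2 core at -204, counted to the first base of the match with +1 as the start. The Pf4 window held AGATAA once, at 37 bases into the transcribed part, and no TATAAA. The Cxcl3 window held TATAAA at -30 and none of the blood factor motifs. A match of this kind is common. AGATAA occurs in 11.2% of 32851 such windows, CAGGAAG in 13.3%, TGANTCA in 7.81% and TATAAA in 13.6%, so these matches are descriptions of the letters and not of binding.

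The subunit genes of the von Willebrand factor receptor were detected unevenly. Gp5 encodes the subunit that thrombin cleaves. The signals of its probe set, 1422817_at, were 90.1 on array 1 and 88.2 on array 2, 3.23 and 2.61 times the bound, and they differed by 1.02-fold. Gp1bb, which encodes the beta chain linked to the ligand-binding alpha chain, was measured by 2 probe sets of its own. The first, 1422977_at, had 85.5 on array 1 and 138.8 on array 2, and 1456427_at had 44.3 and 46.8. Both were above the bound on both arrays, and the duplicates of 1422977_at differed by 1.62-fold against 1.06-fold for 1456427_at. Gp9 encodes the small subunit that the complex needs to reach the cell surface. Its only probe set, 1419720_at, had 35.6 on array 1, which is 1.28 times the bound, and 20.7 on array 2, which is 0.612 times the bound. The Gp9 signal therefore lay on either side of background in RNA of the same condition.

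The probe set 1452357_at, which pairs with Septin5 and Gp1bb together, gave 454.3 on array 1 and 467.8 on array 2. In RefSeq the models of the 2 genes overlap on chromosome 16. Septin5 encodes a septin of the cytoskeleton. The shared probe set differed by 1.03-fold between the duplicates. Of the probe sets of Gp1bb alone, 1456427_at differed by 1.06-fold and 1422977_at by 1.62-fold, so only the last stood apart. How much Septin5 RNA adds to any of the 3 signals was not tested.

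Gp6, the collagen receptor gene, had the largest ratio between the duplicates among the members. Its probe set, 1446554_at, had 33.2 on array 1, 1.19 times the bound, and 3.6 on array 2, 0.107 times the bound. The duplicates differed by 9.22-fold, with the higher value just above background. With a signal near or under background this ratio does not measure a change in RNA. Fcer1g, which encodes the Fc receptor gamma chain through which the receptor signals and which other myeloid cells also make, was above the bound at 91.2 and 144.4. Itga2, the gene of a collagen-binding integrin subunit, was just above the bound on array 1 at 31.8 and just below it on array 2 at 33.5.

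The start regions of Gp5 and Gp6 are shown as a pair, since both hold AGATAA. Gp5 was above background on both arrays, and Gp6 passed the bound on array 1 only. The windows, in capitals as before, lie at chr16:30310732-30311031 (minus strand) for Gp5 and at chr7:4397695-4397994 (minus) for Gp6.
Gp5: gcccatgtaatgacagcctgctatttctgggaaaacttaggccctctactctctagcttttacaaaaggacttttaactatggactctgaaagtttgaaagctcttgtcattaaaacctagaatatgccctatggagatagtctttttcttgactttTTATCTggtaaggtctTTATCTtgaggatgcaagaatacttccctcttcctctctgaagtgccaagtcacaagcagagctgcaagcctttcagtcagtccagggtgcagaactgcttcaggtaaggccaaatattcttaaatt
Gp6: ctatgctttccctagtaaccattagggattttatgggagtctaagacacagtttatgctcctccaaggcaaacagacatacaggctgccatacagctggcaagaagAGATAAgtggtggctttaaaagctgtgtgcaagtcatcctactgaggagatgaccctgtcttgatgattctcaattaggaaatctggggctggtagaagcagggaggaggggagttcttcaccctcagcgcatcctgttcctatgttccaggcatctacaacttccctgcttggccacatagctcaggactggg

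The Gp5 window held AGATAA at -93 and -77, both on the opposite strand, and the Gp6 window once, at -144. Of the 7 genes with a window, 3 held AGATAA (Pf4, Gp5 and Gp6), 2 held TGANTCA (Ppbp and Gp1bb), and 1 each held CAGGAAG (Gp1ba) and TATAAA (Ppbp). Gp9 held none of the 4 strings searched. Among the 4 cluster neighbours with a window, none held AGATAA or TGANTCA, 1 held CAGGAAG (Cxcl2) and 2 held TATAAA (Cxcl3 and Cxcl15). Of all 32851 windows, 11.2% hold AGATAA and 7.81% hold TGANTCA. With so few windows in each set, a difference between members and neighbours was not tested. A window without a match says only that these exact letters are not in it. It may hold another form of the same motif, which was not searched for.

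Nfe2 encodes the blood-specific subunit of NF-E2, which works as a dimer with a small Maf protein, and it is made in erythroid cells as well as in megakaryocytes. The signals of its probe set, 1452001_at, were 509.5 on array 1 and 575.8 on array 2, 18.3 and 17.0 times the bound. The duplicates differed by 1.13-fold and lay far from background. Of its small Maf partners, Mafg (160.3 and 138.1) and Mafk (163.5 and 164.8) were above background, and Maff was below it at 26.4 and 24.9. Of the 5 genes of related factors, 4 passed on both arrays, among them Nfe2l1 (121.8 and 121.4), Nfe2l2, a regulator of the oxidative stress response (292.7 and 334.5), Bach1 and Bach2. Nfe2l3 was below the bound at 27.2 and 30.7.

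Genes of the wider megakaryocyte programme were mostly above background. Of 59 measured genes in 5 lists of such genes, 52 passed on both arrays (88.1%), 1 passed on 1 array and 6 passed on neither, where 65.5% of all named genes passed on both. Over 2 times the bound on both arrays were 43 of the 59, beside 51.8% of all named genes. The lists were chosen with earlier results of these data known, and many of their genes are active in other cells, so the count does not place the transcripts in megakaryocytes.

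The platelet surface genes were the most divided of these lists, with 8 of 14 above background on both arrays. This share of 57.1% was below the 65.5% of all named genes. Itga2b, which encodes the integrin chain that marks the megakaryocyte lineage, had 136.5 on array 1 and 124.7 on array 2. Itgb3, the gene of its partner chain in the fibrinogen receptor, had 72.1 and 79.4 in 1 probe set and only 2.4 and 5.1 in the other. Clec1b, the gene of a podoplanin receptor, stood at 91.7 and 86.5, and Treml1, which encodes a granule membrane receptor, at 84.2 and 85.5. Among these 4 genes the duplicates differed by at most 1.10-fold in the probe sets above background. Tbxa2r, the thromboxane receptor gene, passed as well (81.6 and 67.3), as did F2rl2 (63.7 and 55.5) and Cd9. For these the duplicates differed more, by 1.21-fold, 1.15-fold and 1.13-fold. Among the 8 they differed most for Fcer1g, described with Gp6 above, at 1.58-fold. The genes below the bound on both arrays were Selp, which encodes P-selectin (14.8 and 16.8), the ADP receptor genes P2ry12 (17.8 and 16.2) and P2ry1 (2.9 and 3.1), the thrombin receptor gene F2rl3 (7.1 and 3.2) and the prostacyclin receptor gene Ptgir (22.7 and 25.0). The agonist receptors were thus split, with the thromboxane receptor gene above background and the ADP receptor genes below it.

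All 13 measured genes of granule contents and enzymes were above background on both arrays. Vwf, the gene of von Willebrand factor, had 100.5 and 121.6, and F13a1, which encodes a clot-stabilising transglutaminase subunit, had 237.4 and 212.2. F5, the coagulation factor V gene, was closer to the bound at 59.0 and 44.8, as was Thbs1 at 77.1 and 56.7. Vwf is also made by endothelium, F13a1 by macrophages and F5 by hepatocytes. Nearest to the bound was Tbxas1, the thromboxane synthase gene, at 34.4 and 36.5.

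All 13 measured genes of platelet signalling and cytoskeleton passed too, and 12 did without probe sets open to cross-hybridisation. Rab27b passed on both arrays only through a probe set of that kind (51.5 and 40.2). Tubb1 encodes the beta tubulin of the platelet's marginal band, and it had 131.5 on array 1 and 143.4 on array 2. Fermt3, the gene of the integrin activator kindlin-3, had 582.9 and 613.9 in its highest probe set, which is of the kind open to cross-hybridisation, and 145.7 and 151.6 in another. Plek and Rasgrp2, which act in platelet activation, had 127.3 and 127.6 and 180.5 and 202.6 in their brightest probe sets. Other probe sets of this list differed more between the duplicates, by 1.41-fold for another of Fermt3 (124.9 and 88.8) and 1.25-fold for 1 of Rasgrp2. The differences were 1.18-fold for 1 of Plek, 1.51-fold for 1 of Vav1 and 1.56-fold for 1 of Myh9 (52.8 and 82.3).

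Of 15 transcription factor genes of the lineage 14 passed, with Maff as the exception. Gata1 and its cofactor gene Zfpm1 had 299.5 and 318.9 and 502.0 and 480.2. Fli1, an ETS factor of megakaryocytes, had 157.0 and 156.8. For Runx1, 1 of 6 probe sets was above background, at 70.0 and 80.0. Gata1 and Zfpm1 serve erythroid cells as well. In the thrombopoietin axis the signal transducer genes Jak2, Stat5a, Stat5b and Sh2b3 all passed, while the ligand gene Thpo was not analysed here.

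**Figure D3:**
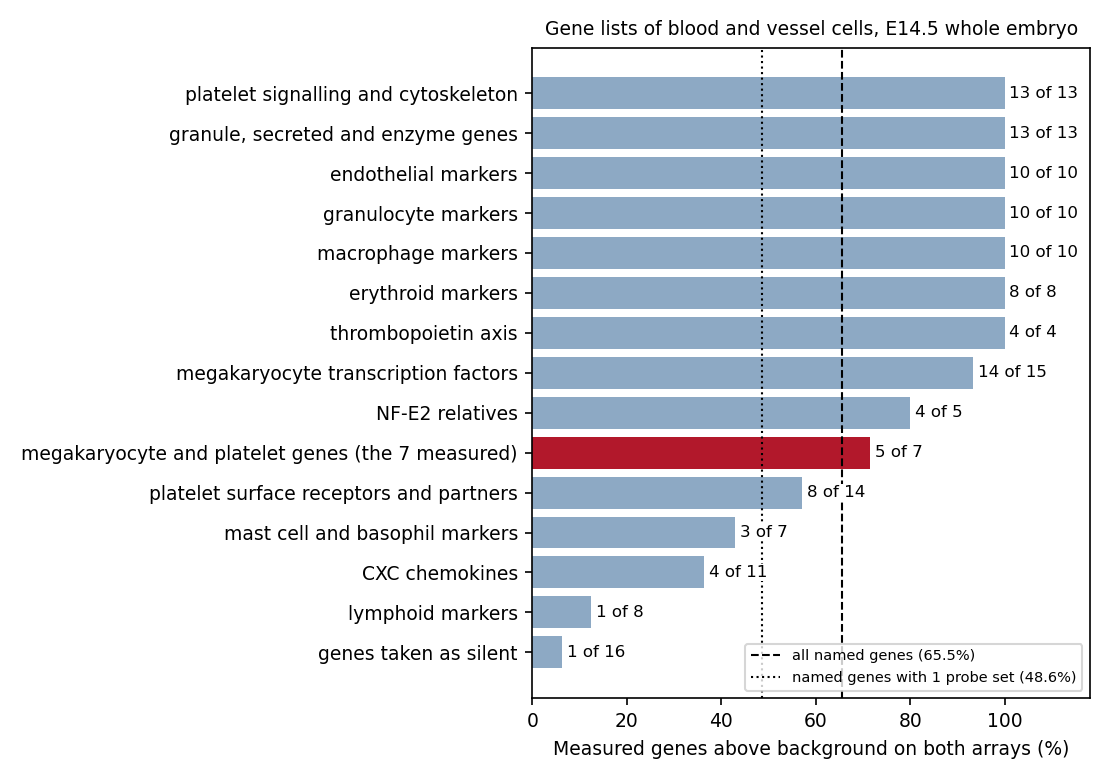
Percentage of measured genes above background (on array 1 and on array 2) for every list, with the gene numbers beside the bars; the dashed and dotted lines mark all named genes (65.5%) and named genes with 1 probe set (48.6%). The 7 measured megakaryocyte and platelet genes (red) reach 71.4%, between the platelet surface genes at 57.1% and the NF-E2 relatives at 80.0%.

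Markers of other blood and vessel cells were in the same RNA. All 8 measured erythroid genes passed, among them Hbb-y, Hbb-bh1, Alas2 and Klf1, as did all 10 macrophage genes (Csf1r, Adgre1, Cd68 and C1qa among them), all 10 granulocyte genes (Mpo, Elane, Prtn3 and Ltf among them) and all 10 endothelial genes (Pecam1, Cdh5, Kdr and Tek among them). Mast cell and basophil genes passed in 3 of 7 cases (Cpa3, Cma1 and, through a probe set open to cross-hybridisation, Hdc), and the high-affinity IgE receptor genes Fcer1a and Ms4a2 and the protease gene Mcpt4 were below the bound. Tpsb2, a tryptase gene, passed on array 1 only (33.8 and 29.0). Of 8 lymphoid genes 1 passed, Cd8a, through a probe set open to cross-hybridisation. Cd3e, Cd4 and Cd79a were below the bound. Among the granulocyte genes, S100a8 passed through its only probe set, which is also open to cross-hybridisation. Of 16 genes taken as silent at this stage 1 passed, Cyp2c29 (37.4 and 56.6). The part of these cells in the signals of genes they share with megakaryocytes, such as Nfe2, was not tested. In bulk RNA of this kind, fewer cells of a type and less RNA per cell cannot be told apart.

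The duplicates gave close signals for most of the members. Differences were taken as the log2 signal of array 2 minus array 1 over the 22138 probe sets above background on both arrays, centred on their median, with an SD of 0.26 over all signal levels. Pf4 lay at -0.10, Ppbp at -0.09, Gp5 at -0.04, Nfe2 at 0.17 and the lower probe set of Gp1bb at 0.07, all within 1 SD. The probe set 1422977_at of Gp1bb lay at 0.69. It was the single probe set of 6 that differed by more than 1.5-fold, where 3.74% of all 22138 did. The median of the 6, of which Gp1bb holds 2, was 0.01, with 3 higher and 3 lower on array 2. Gp9 and Gp6 are not among them, since both fell below the bound on array 2, where both had their lower signal. With 1 probe set a gene, 2 of 5 genes were higher and 3 lower on array 2, with a median of -0.04. Over the 52 genes of the wider programme the median was -0.01, with values from -0.45 to 0.65.

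**Figure D4:**
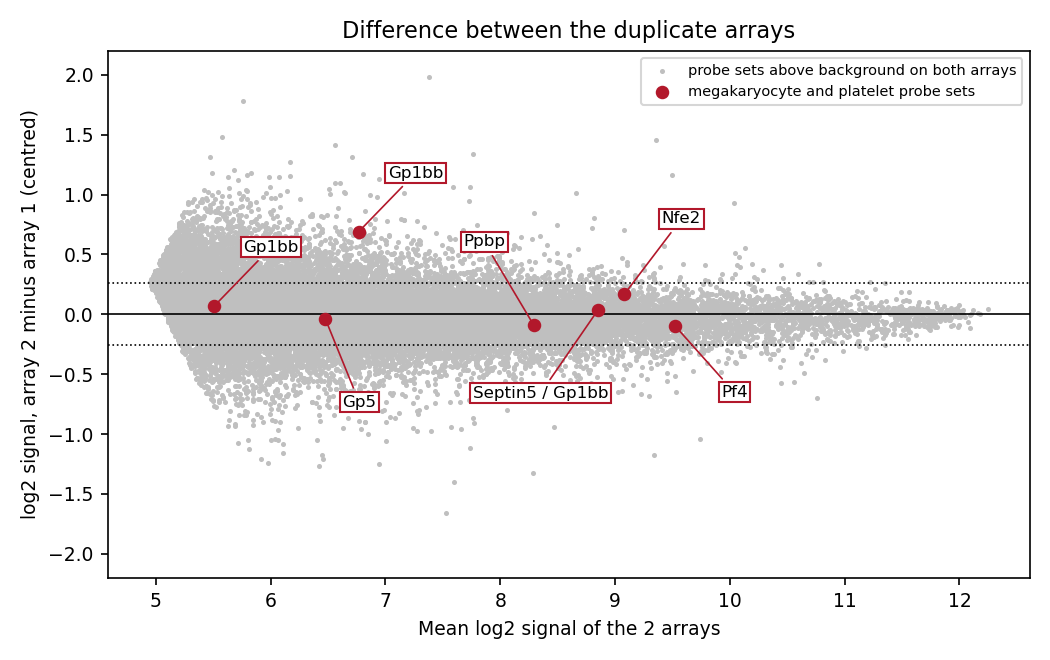
Centred log2 difference between the arrays (array 2 minus array 1) against the mean log2 signal for the probe sets above background on both arrays (grey), with the megakaryocyte and platelet probe sets and the probe set shared by Septin5 and Gp1bb in red; dotted lines mark 1 SD (0.26). All red points lie within the dotted lines apart from 1 probe set of Gp1bb at 0.69.

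For lists of other blood and vessel cells the median difference, with 1 probe set a gene, was 0.01 for erythroid, -0.01 for macrophage, 0.13 for granulocyte and -0.10 for endothelial genes. It was -0.10 for the 3 mast cell and basophil genes above background, and the single lymphoid gene, Cd8a, lay at 0.82. They compare a single array with its duplicate, and no test was made of them.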

How the data were processed

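The samples were 2 duplicate arrays of total RNA from untreated embryos at E14.5. The deposited values are signal intensities on a linear scale, made by the authors with GCOS 1.3 (named in the submitters' processing notes), 1 per probe set and array. Each array has a mean of 100 after trimming of 2% at each end. Probe sets were named from GEO's platform annotation, with symbols updated by gene identifier through RefSeq GRCm38.p6 (34754 of 34958 probe sets with 1 symbol). The 932 with several symbols named no gene.

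The members and all gene lists were chosen with earlier results of these data known. Of 158 other listed names, 144 were measured. All members, the first 4 genes of each list and exceptions of 5 or fewer are named; other genes are examples chosen after their values were seen. Genes with several probe sets are represented by the brightest one on average, except where more are given. With 2 arrays of a single condition there was nothing to test, so no p-value is given, and this number limits the precision of every value. The calls and the differences between arrays were also run on simulated data, with expressed genes mostly well above the bound. That run does not bear on genes transcribed at levels near the bound. Motifs were searched on both strands of RefSeq promoter windows; Nfe2 and Cxcl5 were not analysed there.

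Alternatives were other bounds (90th and 99th percentile, genes taken as silent, array median), the same probe set on both arrays, removal of probe sets ending in _s_at or _x_at, and each array alone. For differences they were no centring, quantile normalization, and no filter with a pseudocount of 16. Computations used Python 3.11.15, pandas 2.3.3, numpy 2.4.6 and matplotlib 3.10.9.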

Additional observations from a re-analysis of the deposited data

How the results depend on the processing

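The same 5 genes (Pf4, Ppbp, Gp1bb, Gp5 and Nfe2) passed under all 6 alternatives that used both arrays and on each array alone. The count was 5 on array 2 alone and 7 on array 1 alone, where Gp9 and Gp6 were added, so the call of these 2 genes rests on array 2. The count for the wider programme lay between 50 (99th percentile bound) and 53, and for all named genes from 11262 with that bound to 12553 on array 1 alone. Tallies of the single lists were recomputed 104 times and in 103 cases moved by at most 1.5-fold. Without probe sets ending in _s_at or _x_at, the platelet signalling and cytoskeleton tally fell to 12 and the granulocyte tally to 9. The CXC chemokine tally then fell to 3, the mast cell and basophil tally to 2 and the lymphoid tally to 0. Without a filter and with a pseudocount of 16, the difference between the arrays could be computed for Gp9 and Gp6 as well, at -0.52 and -1.36, and the median of the 8 probe sets was -0.08. Over the 6 probe sets above background the median ranged from -0.04 with quantile normalization to 0.02 without centring. Leaving out an array leaves no difference to compute. A gene under the bound may still be transcribed, and a single low probe set cannot be told from one that responds poorly.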
